A study of Homo sapiens with 6 samples.

Results

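DAPK3 belongs to the death-associated protein kinases (DAPK), which act on serine and threonine residues. The 9 genes described here are DAPK3 itself, the 2 family members with RNA in these cells (STK17A and STK17B) and 6 genes whose proteins have been reported to bind or act with DAPK3 (PAWR, DAXX, AATF, LMO7, STAT3 and NLK). They were taken by symbol from a table of 60675 genes, and all 9 were among the 14613 genes with enough reads to test. The study compared messenger RNA of SUM159 cells, a long-established human line from a triple-negative breast tumour, between 3 libraries labelled control (genotype given as DAPK3 wild type) and 3 labelled DAPK3 KO, the latter all from 1 knockout line numbered 3. Both groups grew in the same serum-containing medium with HEPES, insulin and hydrocortisone, and no treatment, drug or time course separates them. The labels do not state how the knockout was made, nor whether separate cultures lie behind the replicates. The p-values thus speak only of variation among these 6 libraries, part or all of which could be technical.

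DAPK3 phosphorylates the regulatory light chain of myosin and the targeting subunit of myosin phosphatase, and so raises actomyosin contraction. In other settings it takes part in cell death. It carries a leucine zipper through which it binds PAWR, a death-promoting protein that can move it between the nucleus and actin filaments, and it has been found with DAXX, a histone chaperone of PML nuclear bodies. STAT3, a transcription factor of cytokine signalling, and NLK, a kinase that modifies TCF factors in Wnt signalling, are further reported partners.

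The libraries held from 16312184 to 22970823 expected counts, and levels are given as CPM, counts scaled to a common library size with TMM factors. Where 3 values follow each other for a label, they are those of R1, R2 and R3 in that order. The R2 library of either label went against it in DAPK3 RNA, as the values below show. The fold changes of the 9 genes and the counts called are therefore given with and without both R2 libraries. For most other genes, the log2 fold change is given either with all 6 libraries or without the R2 libraries. Whether these 2 libraries carry each other's labels was not tested, and all values by label rest on the labels as given. LPXN, encoding the focal adhesion protein leupaxin, separated the libraries in the same way, at 8.50, 28.5 and 6.49 CPM with the control label and 31.5, 10.5 and 27.6 CPM with the KO label. Of 5 markers of mesenchymal breast cancer lines, all exceeded 1 CPM in at least 1 library. Of 8 luminal markers 5 stayed under 1 CPM in all libraries, with PGR at 0 throughout and ESR1 at no more than 0.478 CPM. ERBB2 stood at 52.2 to 97.7 CPM, lower in each KO library than in each control library (log2 fold change −0.65, SE 0.17, edgeR adjusted p = 0.635), and GATA3 reached 10.4 CPM. The summed level of 7 blood and immune markers was at most 13.5 CPM in control and 14.7 CPM in KO, while PTPRC, which marks leukocytes, was 2.92 to 3.28 CPM in the 3 libraries high in DAPK3 and at most 0.106 CPM in the 3 others. CD68, a macrophage marker and the most abundant of that list, went the other way, at 6.80 to 8.50 CPM in the 3 libraries high in DAPK3 and 10.7 to 13.6 CPM in the 3 others. The summed level of 7 endothelial and stromal markers was 76.9 to 656 CPM in control and 61.2 to 559 CPM in KO, with CDH5 at 0. Most of that sum was the collagen gene COL1A1, at 492, 64.0 and 626 CPM with the control label and 57.2, 540 and 55.6 CPM with the KO label. COL1A1 and PDGFRB were low in the 3 libraries low in DAPK3, while DCN and PECAM1 overlapped. The part of these marker genes in the results below was not tested.

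DAPK3 (ENSG00000167657, GRCh38 chromosome 19, 3958453 to 3971123, minus strand, protein-coding) stood at 26.2, 10.5 and 26.1 CPM with the control label. It stood at 13.1, 27.2 and 11.2 CPM with the KO label. The level was high in control R1, control R3 and KO R2 and low in the other 3 libraries, so 1 library of each label lay with the opposite group. These values rest on 219 to 536 expected counts. The exact 95% Poisson intervals, which cover counting error only, reached at most 14.8 CPM in the 3 low libraries and went no lower than 23.9 CPM in the 3 high ones. The 3 low libraries therefore still held DAPK3 RNA, and since an edited allele can keep its transcript, the RNA level does not give a library's genotype. The group means were 20.9 ± 9.06 CPM in control and 17.1 ± 8.77 CPM in KO (SD, n = 3). KO over control gave −0.29 on the log2 scale (SE 0.47, edgeR quasi-likelihood test, Benjamini-Hochberg adjusted p = 0.877).

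The stretches of DNA before the transcription starts of 4 members are shown because DAPK3 and STK17B divided the 6 libraries in one way and AATF and STAT3 in the reverse way, as described further on. They are RefSeq sequences of GRCh38.p14, from 250 bases before the RefSeq start, written 5′ to 3′ on the strand of the gene. Each was cut at the first base that GENCODE places in an exon of any gene. Those of DAPK3, AATF and STAT3 end just before the first base of the gene as GENCODE gives it. That of STK17B lies inside the gene's span, before the start of 1 of its transcripts, since another annotated transcript begins further upstream. They lie at chr19:3971124-3971349 (minus strand) for DAPK3, chr2:196171579-196171828 (minus) for STK17B, chr17:36948704-36948874 (plus) for AATF and chr17:42388569-42388692 (minus) for STAT3. Capitals mark matches, on either strand, to 7 motifs: the CCAAT box (CCAAT), the GC box (GGGCGG), an ETS motif (CCGGAAGT), the E-box (CACGTG), the cyclic AMP response element (TGACGTCA), the TATA box (TATAAA) and a STAT motif (TTCNNNGAA).
DAPK3: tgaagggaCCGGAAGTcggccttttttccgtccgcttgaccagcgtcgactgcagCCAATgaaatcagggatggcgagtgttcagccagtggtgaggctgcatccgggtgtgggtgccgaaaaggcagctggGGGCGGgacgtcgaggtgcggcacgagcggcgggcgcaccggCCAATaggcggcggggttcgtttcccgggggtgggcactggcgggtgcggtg
STK17B: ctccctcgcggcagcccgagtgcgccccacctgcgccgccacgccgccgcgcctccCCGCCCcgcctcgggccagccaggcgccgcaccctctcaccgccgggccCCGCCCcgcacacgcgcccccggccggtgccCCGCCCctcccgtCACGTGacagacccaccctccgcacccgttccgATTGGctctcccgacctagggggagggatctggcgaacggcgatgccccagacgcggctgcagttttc
AATF: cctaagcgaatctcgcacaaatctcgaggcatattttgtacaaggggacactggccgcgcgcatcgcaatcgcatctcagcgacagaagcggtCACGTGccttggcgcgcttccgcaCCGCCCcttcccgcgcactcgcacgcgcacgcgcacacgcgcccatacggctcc
STAT3: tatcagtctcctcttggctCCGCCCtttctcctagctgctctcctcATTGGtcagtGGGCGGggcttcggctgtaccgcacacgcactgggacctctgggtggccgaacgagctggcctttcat

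The DAPK3 stretch of 226 bases held 2 CCAAT boxes, 1 GC box and 1 ETS motif, and the 250 bases of STK17B held 1 CCAAT box, 3 GC boxes and 1 E-box. The CCAAT box and the GC box were thus shared by this pair, and in windows of 226 bases they occur in 30.4% and 39.6% of the 35116 start windows of the table. The ETS motif occurs in 2.42% of windows of that length and was not in the STK17B stretch. AATF held 1 GC box and 1 E-box in 171 bases, where 29.7% and 3.56% of windows hold them. STAT3 held 2 GC boxes and 1 CCAAT box in 124 bases, where 21.3% and 15.4% of windows hold them. These shares cover the first bases of each window, to the length of the stretch. The other windows were not cut at exons, so their bases can lie in an exon where those of the 4 stretches do not. None of the 4 stretches held the cyclic AMP response element, the TATA box or the STAT motif in these letters. A match is a description of the letters and not a measured binding site. The table gives 5 start windows for LMO7 and 2 for PAWR, and expression was not measured per start, so neither is shown. DAXX and NLK have no window in it.

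The other kinases of the family differed in how they went with DAPK3. STK17B (ENSG00000081320, chromosome 2, 196133566 to 196176503, minus strand), a nuclear kinase also called DRAK2, stood at 44.3, 19.7 and 34.3 CPM with the control label and 22.7, 55.4 and 25.8 CPM with the KO label. It was highest in KO R2 and lowest in control R2, and its 3 high libraries were the 3 high libraries of DAPK3. STK17A (ENSG00000164543, chromosome 7, 43582758 to 43650713, plus strand), also called DRAK1, stood at 62.5, 65.9 and 45.5 CPM with the control label and 41.7, 54.0 and 61.9 CPM with the KO label. Its values did not follow the labels or the DAPK3 level, and control R2, the lowest library for DAPK3, was its highest. COA1, a gene on the opposite strand whose span overlaps that of STK17A, reached 63.5 CPM. Whether exons of COA1 and STK17A overlap was not examined, and the strand setting is not stated. The expected counts of STK17A were whole numbers in each library, from 784 to 1426. DAPK1 and DAPK2, the other family members, reached 2 and 10.03 expected counts in their highest libraries, too few to be tested.

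Per kilobase of merged exons, STK17A RNA was the most abundant of the family in each library, at 8.17 to 12.9 CPM per kilobase. DAPK3 stood at 2.95 to 7.67 and STK17B at 2.99 to 8.42 CPM per kilobase. DAPK3 made up 28.0%, 15.6% and 34.2% of the family's summed CPM per kilobase with the control label and 24.0%, 28.7% and 16.4% with the KO label. STK17A made up 46.4%, 68.5% and 41.4% in control and 53.3%, 39.7% and 63.2% in KO. The summed level holds DAPK3 and STK17B too, so a share of STK17A is larger where those are low, and its own CPM did not follow the DAPK3 order.

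**Figure D1:**
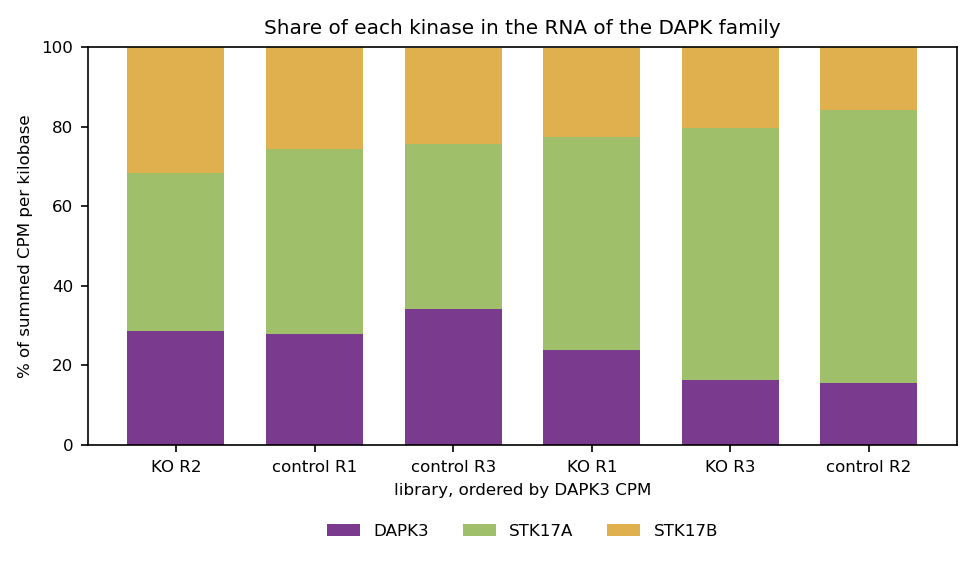
Share of DAPK3, STK17A and STK17B in the summed CPM per kilobase of merged exons of the 5 DAPK family genes (y axis, %), in each of the 6 libraries ordered from the highest to the lowest DAPK3 CPM (x axis). DAPK1 and DAPK2 together are too small to be seen, at no more than 0.172% for DAPK2, and STK17A takes between 39.7% (KO R2) and 68.5% (control R2).

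Among the partners that act with DAPK3 in the nucleus, DAXX and AATF were low where DAPK3 was high. DAXX (ENSG00000204209, chromosome 6, 33318558 to 33323016, minus strand) stood at 147, 209 and 120 CPM with the control label and 200, 161 and 225 CPM with the KO label. AATF (ENSG00000275700, chromosome 17, 36948875 to 37056871, plus strand), a nucleolar protein that also acts with RB1 in transcription, stood at 140, 173 and 138 CPM with the control label and 187, 156 and 193 CPM with the KO label. For both genes control R2 lay above KO R2, and the 3 libraries low in DAPK3 lay above the 3 others. PAWR (ENSG00000177425, chromosome 12, 79574979 to 79691097, minus strand) stood at 72.9, 69.7 and 58.0 CPM with the control label and 58.5, 105 and 86.2 CPM with the KO label. KO R2 was its highest library, and its groups overlapped by label and by DAPK3 level.

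LMO7, a LIM-domain protein of cell junctions and the nuclear envelope, varied most among the 9. LMO7 (ENSG00000136153, chromosome 13, 75620434 to 75859870, plus strand) stood at 58.0, 24.7 and 56.7 CPM with the control label and 17.5, 45.7 and 20.6 CPM with the KO label, a 3.31-fold span from the lowest to the highest library on 329.87 to 1187.67 expected counts. Control R1, control R3 and KO R2 were high, as for DAPK3. The spans of DAPK3 and STK17B were 2.60-fold and 2.81-fold, and those of the other 6 members ran from 1.37-fold (NLK) to 1.88-fold (DAXX).

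The signalling partners STAT3 and NLK varied by at most 1.44-fold from the lowest to the highest library. STAT3 (ENSG00000168610, chromosome 17, 42313324 to 42388568, minus strand) stood at 222, 264 and 183 CPM with the control label and 228, 217 and 229 CPM with the KO label. Control R2 was highest and control R3 lowest, so the control libraries enclosed those labelled KO. The 3 libraries low in DAPK3 lay above the 3 others, but by little: KO R1 exceeded control R1 by less than the difference between control R1 and control R3. NLK (ENSG00000087095, chromosome 17, 28041737 to 28196381, plus strand) stood at 34.0, 28.4 and 26.0 CPM with the control label and 26.5, 35.6 and 29.4 CPM with the KO label, with overlap by either order.

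**Figure D2:**
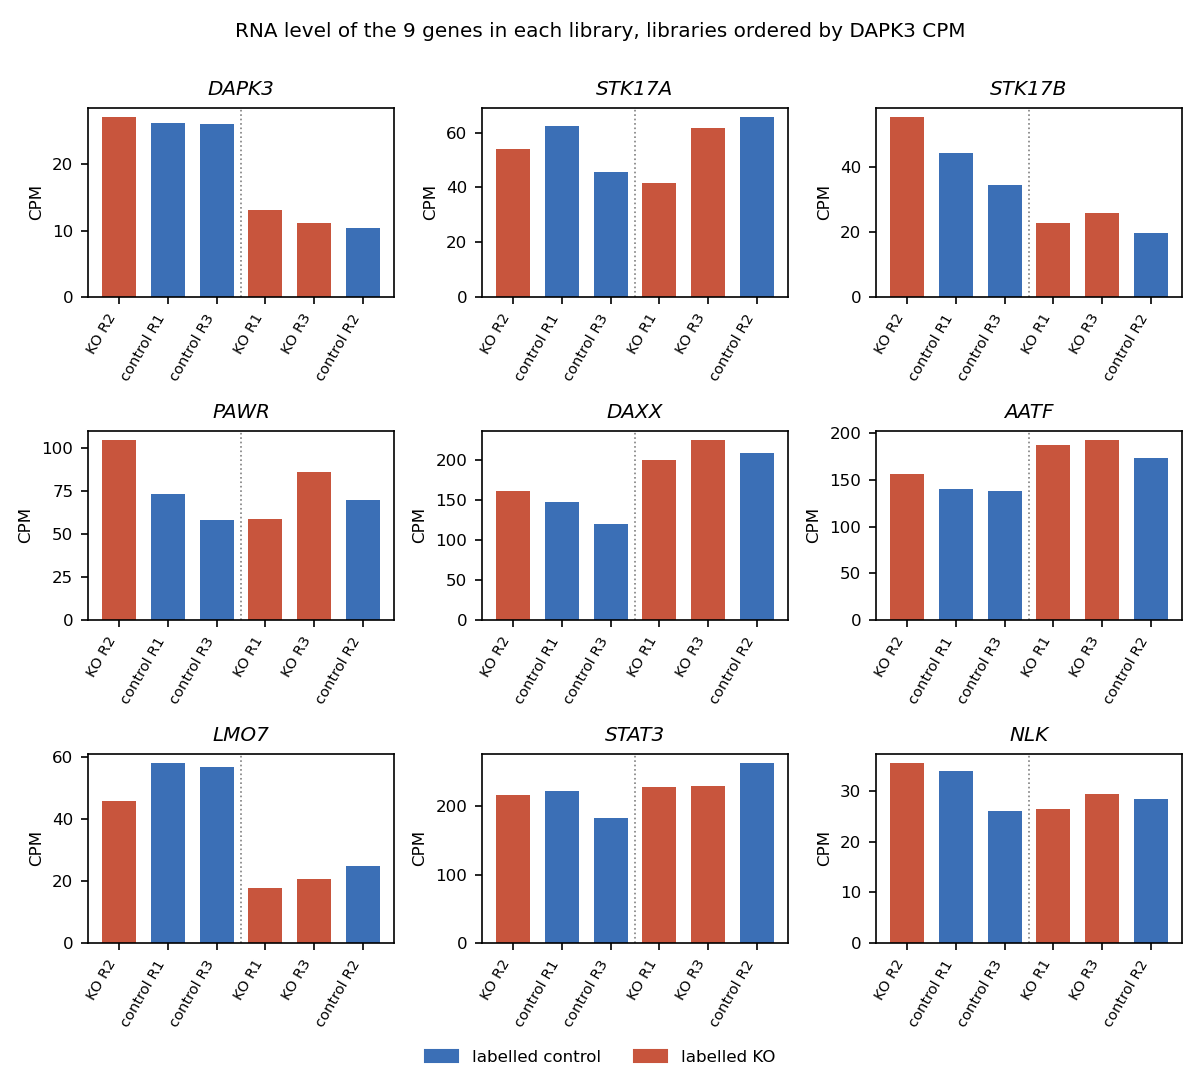
RNA level (CPM, y axis from 0) of the 9 genes in each library, with libraries ordered from the highest to the lowest DAPK3 CPM and coloured by label. Left of the dotted line are the 3 libraries high in DAPK3, where STK17B and LMO7 are also high and DAXX, AATF and STAT3 low, while STK17A, PAWR and NLK overlap across the line.

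Per kilobase of merged exons, the mean level over the 6 libraries was 57.4 CPM per kilobase for DAXX, 34.9 for AATF, 25.4 for STAT3 and 10.8 for STK17A. It was 6.43 for PAWR, 5.67 for NLK, 5.36 for DAPK3, 5.12 for STK17B and 2.59 for LMO7. Merged exons hold those of all annotated transcripts (14367 bases for LMO7, 3549 for DAPK3), and which transcripts were expressed was not measured. By CPM alone DAPK3 had the lowest mean of the 9 genes, at 19.0, and LMO7 stood at 37.2. Of the neighbours in this order, only STAT3 (lowest library 20.7) and STK17A (highest library 12.9) had ranges over the libraries that did not overlap. Compared within each library, DAXX also lay above AATF, AATF above STAT3 and STK17A above PAWR in all 6. The range of DAPK3 overlapped those of PAWR, NLK, STK17B and LMO7, while LMO7 (highest library 4.04) lay below PAWR (lowest 4.97) and NLK (lowest 4.92).

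Compared by label, none of the 9 genes was called different between the libraries labelled KO and control, and the values of each overlapped between the groups. The edgeR test, fitted over all 14613 genes, called 0 genes, which is 0% of those tested, and limma-voom also called 0, while DESeq2 called 114 of which none was a member. An unadjusted p under 0.05 was reached by 0 of the 9 and by 7.66% of genes (1119), 3.49% higher and 4.17% lower in KO. The largest difference was that of LMO7, at 46.5 ± 18.9 CPM in control and 28.0 ± 15.4 CPM in KO (SD, n = 3; log2 fold change −0.74, SE 0.47, edgeR adjusted p = 0.717). DAXX stood at 159 ± 45.6 and 195 ± 32.3 CPM (0.30, SE 0.23, edgeR adjusted p = 0.758) and AATF at 151 ± 19.7 and 179 ± 19.7 CPM (0.25, SE 0.14, edgeR adjusted p = 0.701). PAWR had a log2 fold change of 0.31 (SE 0.22) and STK17A of −0.14 (SE 0.20). STK17B, NLK and STAT3 lay within 0.08 of 0, with standard errors of 0.43, 0.17 and 0.15. The groups did not overlap for 0 of the 9 genes, against 13.8% of all genes tested.

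Without both R2 libraries, which were left out because their DAPK3 RNA goes against the label, 5 of the 9 genes were called between the 2 remaining libraries of each label, against 27.3% of the 14846 genes tested. LMO7 was lower in KO R1 and R3 than in control R1 and R3, by −1.60 on the log2 scale (SE 0.15, edgeR adjusted p = 0.000625). DAPK3 was lower as well (−1.13, SE 0.16, edgeR adjusted p = 0.00361), which the choice of libraries fixed. STK17B was lower by −0.71 (SE 0.17, edgeR adjusted p = 0.0219). DAXX and AATF were higher, by 0.66 (SE 0.14, edgeR adjusted p = 0.015) and 0.43 (SE 0.11, edgeR adjusted p = 0.0266). Of all genes tested 12.2% were called higher and 15.2% lower. STK17A (−0.07, SE 0.23), PAWR (0.13, SE 0.21), STAT3 (0.16, SE 0.13) and NLK (−0.11, SE 0.17) were not called. These p-values come from libraries chosen with the DAPK3 level known and are not independent evidence for the labels.

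**Figure D3:**
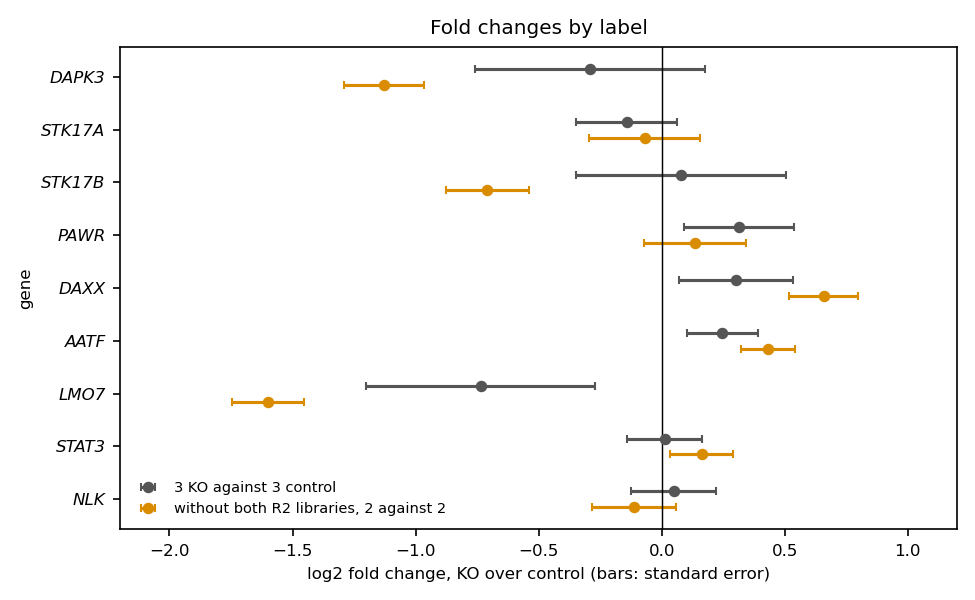
Log2 fold change of KO over control for the 9 genes (x axis; bars are standard errors), with all 6 libraries (grey) and without both R2 libraries (orange). With all libraries each value lies between −0.74 (LMO7) and 0.31 (PAWR), while without the R2 libraries LMO7, DAPK3 and STK17B lie at −0.71 or below and DAXX and AATF at 0.43 or above.

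In order of DAPK3 RNA, KO R2, control R1 and control R3 came first and KO R1, KO R3 and control R2 last. Of the 8 other members, 5 had no overlap between these 3 high and 3 low libraries, 2 of them high with DAPK3 (STK17B and LMO7) and 3 low (DAXX, AATF and STAT3). Over all other genes tested, 43.5% had no overlap, 22.2% high with DAPK3 and 21.3% low. The order comes from a measured value, so this is a description with no test, and the count among the members (5 of 8) is read beside that background. Scaled to library totals in place of TMM, the count was also 5. In bulk RNA, fewer cells of a type and less RNA per cell cannot be told apart.

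STK17A, PAWR and NLK shared another arrangement, which was noticed after their values were seen. In each of them the 2 lowest libraries were control R3 and KO R1, one of each label and one from each side of the DAPK3 order. Over all genes tested this was so for 5.82%.

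The genes most like DAPK3 in pattern followed it closely. Likeness was the root mean square difference, over the 6 libraries, of log2 CPM centred on each gene's mean, computed for the 9521 other genes with a mean of at least 10 CPM. The 5 closest were ARHGEF12, a guanine nucleotide exchange factor (0.06 on the log2 scale), UTRN, encoding utrophin (0.07), C5orf42, a ciliary gene (0.07), TTC7A (0.07) and CLMP, encoding an adhesion molecule (0.07). ARHGEF12 stood at 207, 86.0 and 186 CPM with the control label and 103, 196 and 87.7 CPM with the KO label. Among the members, STK17B ranked 206 of 9521 (0.24) and LMO7 309 (0.27). NLK ranked 2831, PAWR 4687, STK17A 6060, STAT3 6529, AATF 7370 and DAXX 8617, the last with a difference of 0.89.

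Genes beside DAPK3 on chromosome 19 were described in the same libraries. The 3 nearest tested protein-coding genes on each side were PIP5K1C, APBA3 and MRPL54 at lower coordinates and EEF2, PIAS4 and ZBTB7A at higher ones. EEF2, the translation elongation factor gene (chromosome 19, 3976056 to 3985469), lies 4933 bases from DAPK3 and stood at 1954, 2043 and 1989 CPM with the control label and 1783, 2261 and 2033 CPM with the KO label. MRPL54, the nearest tested on the other side, had 24.1 to 32.1 CPM. It lies 189878 bases from DAPK3, and PIP5K1C, the farthest on that side, 257974 bases. The values of all 6 genes overlapped between the libraries high and low in DAPK3, where 43.5% of all genes did not overlap. None was called with all libraries or without the R2 libraries (27.3% of all genes called in the latter), and the lowest edgeR adjusted p were 0.635 and 0.102, both for ZBTB7A.

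**Figure D4:**
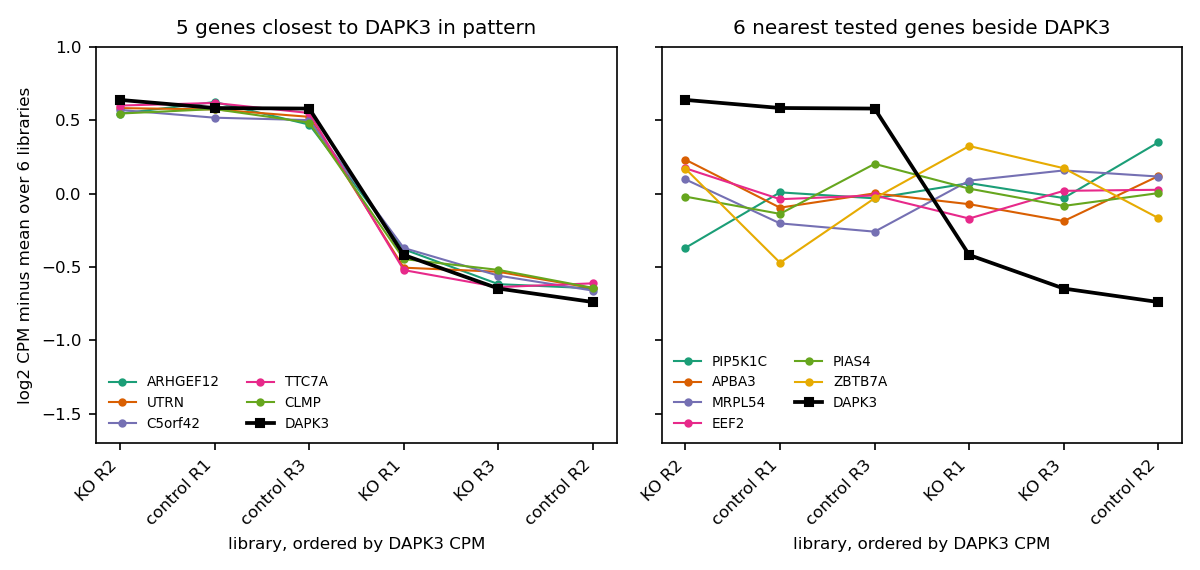
Log2 CPM minus its mean over the 6 libraries (y axis) for the 5 genes closest to DAPK3 in pattern (left) and the 6 nearest tested protein-coding genes beside DAPK3 on chromosome 19 (right), with DAPK3 in black and libraries ordered by DAPK3 CPM. The genes on the left stay within about 0.07 of DAPK3 by root mean square, and those on the right overlap between the 3 high and 3 low libraries.

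Other genes of the pathways around the members were described by lists, for which no list test was made. With all 6 libraries the count called was 0 in each, as over all genes, and the median log2 fold change of a list lay between −0.15 and 0.09, against −0.0003 over all genes tested. Counts without the R2 libraries are read against the 27.3% of all genes called there and the median of −0.02 over all genes. Genes without overlap by label are read against the 13.8% of all genes tested.

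Of the myosin light chain and calmodulin-dependent kinases, more distant relatives of DAPK3, 10 of 18 were tested. Without the R2 libraries 2 were called higher and 2 lower, with a median log2 fold change of −0.15. MYLK, the smooth muscle myosin light chain kinase, stood at 13.8, 0.621 and 14.4 CPM with the control label and 1.22, 17.9 and 0.781 CPM with the KO label, and was lower by −3.84 (SE 0.29) without the R2 libraries. CAMK4 went the other way, at 3.96, 15.7 and 2.92 CPM with the control label and 8.56, 3.34 and 13.2 CPM with the KO label (1.65, SE 0.30). CAMK1D was also higher (1.26, SE 0.31), and TRIO, the most abundant of the list, was lower (−0.58, SE 0.12). CAMKK2 (−0.37, SE 0.12) and CAMK2D (−0.03, SE 0.14) were next in level and were not called.

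The myosin phosphorylation genes hold the substrates of DAPK3 and the kinases and phosphatase subunits that act on the same light chains. Of 15 tested, 2 were called higher and 3 lower without the R2 libraries, with a median of −0.26. MYL9, a regulatory light chain, stood at 2.98, 0.287 and 2.87 CPM with the control label and 0.319, 2.91 and 0.478 CPM with the KO label (−2.85, SE 0.41). The more abundant light chains MYL12A (0.18, SE 0.11) and MYL12B (0.06, SE 0.12) were not called. PPP1R12A, the phosphatase targeting subunit that DAPK3 phosphorylates, stood at 91.0, 60.8 and 80.8 CPM with the control label and 68.8, 92.6 and 68.9 CPM with the KO label (−0.33, SE 0.12, not called). Among the kinases, CIT (−1.18, SE 0.15) and ROCK2 (−0.44, SE 0.12) were lower, while ROCK1 (−0.08, SE 0.11) was not called. RHOA, a small GTPase gene and the most abundant of the list, was not called either (−0.59, SE 0.19). The phosphatase inhibitor genes PPP1R14B (0.60, SE 0.12) and PPP1R14C (1.38, SE 0.22) were higher.

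Around PAWR and DAXX, 13 of 15 nuclear body and partner genes were tested, and 3 were called higher and 2 lower without the R2 libraries, with a median of −0.03. TOPORS, a SUMO and ubiquitin ligase of these bodies, stood at 31.3, 42.2 and 31.9 CPM with the control label and 74.6, 38.8 and 58.3 CPM with the KO label (1.05, SE 0.15). The death receptor gene FAS (0.48, SE 0.14) was also higher, and SUMO2 (−0.38, SE 0.11) lower. HIPK2 (0.17, SE 0.13) and PML itself (−0.39, SE 0.14) were not called, and WT1 was at 0 in each library. SUMO2 differed by label without overlap, at 147, 127 and 139 CPM with the control label and 109, 101 and 113 CPM with the KO label (log2 fold change with all libraries −0.36, SE 0.11, edgeR adjusted p = 0.635). MAP3K5 also lay lower in KO without overlap (with all libraries −0.67, SE 0.24, edgeR adjusted p = 0.635). The list thus had 2 genes lower and 0 higher in this way, where 13.8% of all genes tested had no overlap.

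Of the 5 AATF partners 1 was called higher and none lower without the R2 libraries. NOL10 and NGDN, which form a nucleolar complex with AATF, had log2 fold changes of 0.10 (SE 0.12) and −0.05 (SE 0.13), and SP1 and RB1 of −0.002 (SE 0.13) and −0.32 (SE 0.18), each without the R2 libraries. The median of the list was −0.002.

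Of the LMO7 partners 10 of 11 were tested, and without the R2 libraries 7 were called, 3 higher and 4 lower, with a median of −0.14. The nectin genes, which encode adhesion molecules and are listed under their older PVRL symbols, divided. PVRL1 stood at 47.3, 143 and 46.8 CPM with the control label and 109, 32.0 and 120 CPM with the KO label (1.27, SE 0.12). PVRL3 stood at 95.03, 33.7 and 71.3 CPM with the control label and 25.6, 80.4 and 33.1 CPM with the KO label (−1.51, SE 0.19), and PVRL2 had a log2 fold change of −0.60 (SE 0.13). The actinin genes ACTN4 (−0.99, SE 0.13) and ACTN1 (−0.51, SE 0.14) were lower, and EMD, encoding the nuclear envelope protein emerin (0.44, SE 0.13), was higher. TMEM173, encoding STING, stood at 8.36, 25.1 and 8.56 CPM with the control label and 13.9, 6.31 and 17.5 CPM with the KO label (0.88, SE 0.20). CTNNA1 (−0.06, SE 0.11), CTNNB1 (−0.19, SE 0.11) and the afadin gene, listed as MLLT4 (−0.10, SE 0.14), were not called, and CDH1 had almost no reads.

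STAT3 acts between cytokine receptors, Janus kinases and target genes. Of 8 ligand and receptor genes tested, 1 was called higher and 2 lower without the R2 libraries (median −0.30). LIF, a gp130 cytokine gene, stood at 10.2, 35.8 and 7.15 CPM with the control label and 43.3, 30.3 and 45.6 CPM with the KO label (2.34, SE 0.20), so the library labelled KO R2 lay below control R2 but well above control R1 and R3. The LIF receptor gene LIFR was lower by −1.19 (SE 0.14), and OSMR, encoding a receptor subunit for oncostatin M, by −0.61 (SE 0.12). The shared subunit gene IL6ST (−0.18, SE 0.11) and IL6R (0.59, SE 0.26) were not called. Of 9 kinase and STAT genes 3 were lower and none higher (median −0.40): JAK1 (−0.40, SE 0.11), STAT2 (−0.66, SE 0.14) and STAT5B (−0.52, SE 0.15). STAT6 (0.08, SE 0.12) was not called.

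Among 9 STAT3 inhibitors 2 were higher and none lower (median −0.14). They were the phosphatase genes PTPN2 (0.86, SE 0.12) and PTPN1 (0.50, SE 0.12), while PTPN11 (−0.17, SE 0.11) and SOCS3 (0.21, SE 0.18) were not called. Of 16 STAT3 target genes 4 were called higher and 3 lower (median −0.01). MYC stood at 575, 759 and 416 CPM with the control label and 926, 901 and 922 CPM with the KO label, with no overlap by label (log2 fold change with all libraries 0.65, SE 0.21, edgeR unadjusted p = 0.0196, adjusted p = 0.635). VEGFA stood at 444, 698 and 601 CPM with the control label and 1074, 744 and 866 CPM with the KO label, also without overlap (0.62, SE 0.21, edgeR unadjusted p = 0.0221, adjusted p = 0.635). PIM1 lay lower in KO without overlap, at 13.1, 12.9 and 18.1 CPM with the control label and 11.5, 11.01 and 12.2 CPM with the KO label (−0.35, SE 0.19, edgeR adjusted p = 0.692). Without the R2 libraries MYC (0.89, SE 0.16), VEGFA (0.88, SE 0.18), MCL1 (0.78, SE 0.17) and JUNB (1.30, SE 0.18) were higher, and TWIST1 (−1.37, SE 0.39), FOSL2 (−0.56, SE 0.12) and HIF1A (−0.47, SE 0.11) lower.

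Of 16 NLK and TCF partner genes tested, 2 were called higher and 2 lower without the R2 libraries (median 0.09). LEF1, a TCF-family factor, stood at 17.6, 5.45 and 13.6 CPM with the control label and 3.30, 16.8 and 4.04 CPM with the KO label (−2.10, SE 0.24), and FOXO1 was also lower (−0.93, SE 0.14). RNF138, a ligase that acts on TCF factors with NLK (0.63, SE 0.17), and TAB3 (0.46, SE 0.13) were higher. CTNNB1 (−0.19, SE 0.11), HIPK2 (0.17, SE 0.13) and TAB2 (0.08, SE 0.14), the most abundant of the list, were not called. TCF7L2 went with the label, at 18.5, 17.4 and 20.0 CPM with the control label and 25.5, 23.4 and 23.6 CPM with the KO label (with all libraries 0.38, SE 0.13, edgeR unadjusted p = 0.0271, adjusted p = 0.635). Of the list, 4 genes lay higher and 1 lower in KO without overlap by label. Over all 14613 genes tested, 1018 lay higher and 1003 lower in this way, 13.8% together.

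Among 16 other reported substrates and regulators of DAPK3, 3 were called higher and 5 lower without the R2 libraries (median −0.01). HSP90AA1, a chaperone gene, was lower in each library labelled KO, at 2951, 1649 and 1769 CPM with the control label and 636, 811 and 832 CPM with the KO label. With all libraries its log2 fold change was −1.48 (SE 0.25, edgeR unadjusted p = 0.000714, adjusted p = 0.635). The R2 libraries thus went with their label for this gene, unlike for DAPK3. HSP90AB1 and the calmodulin gene CALM3 also lay lower in KO with no overlap by label, with log2 fold changes of −0.39 (SE 0.13) and −0.58 (SE 0.17). RPL13A (0.18, SE 0.09) and BECN1 (0.19, SE 0.10) lay higher with no overlap, and none of these was called with all libraries. The list thus had 2 genes higher and 3 lower without overlap by label, where 13.8% of all genes tested had no overlap. HSP90AA1 (−1.69, SE 0.25), HSP90AB1 (−0.50, SE 0.13), CALM3 (−0.73, SE 0.15) and CALM2 (−0.87, SE 0.11) were called lower without the R2 libraries. CDKN1A (1.10, SE 0.17), MDM2 (0.46, SE 0.12) and TMEM173 were called higher there. RPL13A (0.15, SE 0.12), ATF4 (−0.13, SE 0.14), YAP1 (−0.23, SE 0.17), ULK1 (−0.24, SE 0.16) and BECN1 (0.18, SE 0.12) were not called.

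**Figure D5:**
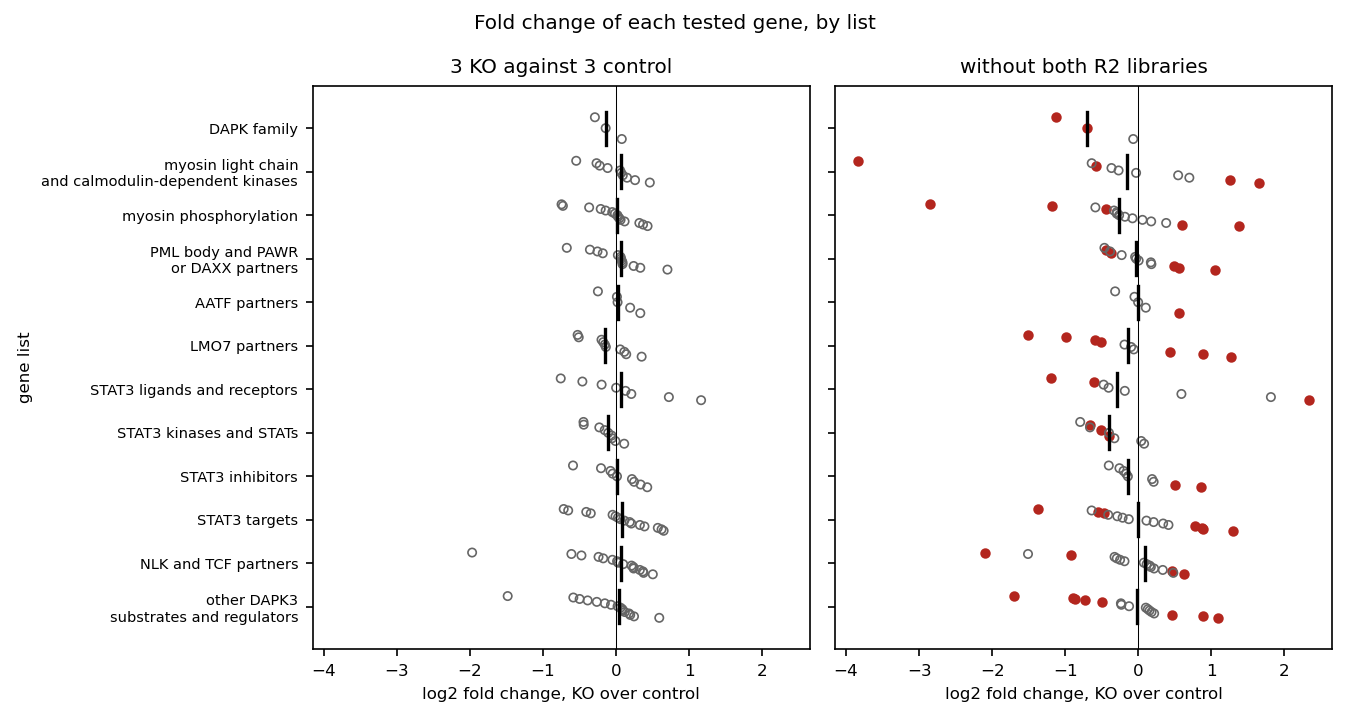
Log2 fold change of KO over control (x axis) for each tested gene of the 12 lists (y axis), with all 6 libraries (left) and without both R2 libraries (right). Red points were called by edgeR, open points were not, and black bars are list medians: no gene is called on the left, and on the right the values run from −3.84 (MYLK) to 2.34 (LIF).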

How the data were processed

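The deposited table has a column of expected counts for each library, the RSEM estimate of read number by gene, without normalization, per the file headers. RSEM, Bowtie2, edgeR and GRCh38 are named in the submitters' processing notes, with versions, annotation release and strand setting not given in the sources used here. From 9.42% to 10.6% of values in a library had any decimal part other than 0. Counts were rounded and tested in edgeR 4.0.16 (R 4.3.3) by the quasi-likelihood test with TMM and filterByExpr, and a gene was called where its Benjamini-Hochberg adjusted p over all genes was below 0.05. Standard errors are the fold change divided by the root of F. The step was tested on simulated counts, where the share of false calls was above the 0.05 aimed at, more so with 2 libraries a label than with 3. CPM values are rounded counts over the library total times the TMM factor. Likeness used a pseudocount of 0.5 CPM. DESeq2 1.42.0 and limma 3.58.1 were alternatives, with other scalings, filters, a replicate block and libraries left out.

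Coordinates, exon lengths and neighbours are from GENCODE 29 (GRCh38), matched by identifier, and this may not be the authors' release. Start windows are from RefSeq, present for 7 of the 9 genes. Each pair of libraries differed beyond sampling noise (chi-square over its degrees of freedom 11.9 to 109). The members, the lists and the choice to leave out both R2 libraries were made with earlier results of these data known. By rule, the text names from each list the 3 most abundant tested genes and the 2 called genes with the largest change without the R2 libraries. Genes named beyond that were chosen after their values were seen. Some genes that this rule names are not reported here, though list counts and medians include them.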

Additional observations from a re-analysis of the deposited data

How the results depend on the processing

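The count of genes called by label was 0 with edgeR under the other scalings, the other filters, limma-voom, the replicate block and each library left out, and 114 with DESeq2. Without both R2 libraries it was 4055, and there 3888 with DESeq2, 4095 with limma-voom, 4237 with library totals, 4101 with RLE scaling and 2705 with a replicate block. Under that last setting AATF was no longer called (edgeR adjusted p = 0.107), and 4 members were. Samples with the same number correlated at −0.655, −0.853 and −0.7 in their deviations from the group means. On the main axis of variation, holding 74.7% of the variance, control R2 and KO R2 each lay opposite the others of their label. That alone makes such correlations negative, so they cannot decide whether the numbers pair the samples. With a replicate block on all libraries 0 genes were called and the log2 fold change of DAPK3 was −0.33.

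With each library left out in turn, the log2 fold change of DAPK3 ran from −0.80 to −0.08 and that of LMO7 from −1.30 to −0.505, both lowest without KO R2. PAWR ran from 0.11 (without KO R2) to 0.50 (without KO R1), DAXX from 0.12 (without control R3) to 0.54 (without control R2) and STK17A from −0.30 (without control R3) to −0.0084 (without KO R1). STK17B changed sign, running from −0.45 to 0.36, and was −0.71 without both R2 libraries, −0.695 there with DESeq2, −0.70 with limma-voom, −0.70 with a replicate block, −0.68 with library totals and −0.69 with RLE scaling. NLK ran from −0.086 to 0.16 and was −0.11, −0.10, −0.10, −0.10, −0.081 and −0.10 under those settings. STAT3 ran from −0.12 to 0.14 and was −0.024 with upper-quartile scaling and −0.0021 with a minimum of 1 CPM in 3 libraries. The cause was not tested. The median log2 fold change of a list changed sign without both R2 libraries for the myosin light chain and calmodulin-dependent kinases (0.06 to −0.15), myosin phosphorylation (0.02 to −0.26), PAWR and DAXX partners (0.07 to −0.029), AATF partners (0.02 to −0.0021), STAT3 ligands and receptors (0.07 to −0.30), STAT3 inhibitors (0.01 to −0.14), STAT3 targets (0.09 to −0.0094) and other substrates (0.04 to −0.012).

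With 3 libraries a label, and 1 in each label going against it in DAPK3 RNA, the standard errors by label were up to 0.47 on the log2 scale. For LMO7 differences of −0.74 with all libraries and of −1.30 without KO R2 (edgeR adjusted p = 0.387) were not called. DAPK3 rests on the fewest reads of the 9 members, and counting error alone is smaller than the gap between its high and low libraries.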
